A study of Mus musculus with 4 samples.

Results

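The genes described here encode the chains of the structural extracellular matrix: collagens, laminins, fibrillins and fibulins, measured in the embryonic mouse pancreas with and without Cyp11a1. They were taken by symbol from the RefSeq transcript that the array design gives for each probe: every gene named Col, Lama, Lamb, Lamc, Fbn or Fbln followed by the numbers of its chain. The rule found 54 genes (39 collagens, 9 laminins, 2 fibrillins and 4 fibulins) with 87 probes among 17305 named genes and 41174 probes, and used no measured value. Some chains had no probe named in this way and are not among the 54, such as Lama3, Lamc1, Col6a3 and Col12a1. Of the 54 members, 52 were bright enough to be tested, whereas Col28a1 and Fbln5 were not well above background on any array in either channel. Pancreas RNA of C57BL/6JNarl embryos at stage E18.5 was compared on 4 arrays, each with 1 Cyp11a1 knockout extract labelled with Alexa 647 (red) and 1 wild-type extract labelled with Alexa 555 (green). The same dye went to the knockout on all 4 arrays, so a dye effect specific to a gene cannot be told apart from genotype. The labels call the arrays biological replicates but do not say whether an extract held 1 embryo or several, or whether the extracts of an array were littermates.

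Cyp11a1 encodes the side-chain cleavage enzyme that starts steroid hormone synthesis from cholesterol. Collagens are trimers of chains wound into a triple helix: fibrillar collagens give tissues tensile strength, collagen IV forms the network of basement membranes, and collagen VI makes beaded filaments at the cell surface. Laminins are alpha, beta and gamma heterotrimers that build the other basement membrane network, on which the epithelium of the pancreas rests. Fibrillins assemble into microfibrils, which scaffold elastic fibres and hold latent growth factors of the TGF-beta family, and fibulins link these fibres to their neighbours. In the pancreas these proteins come largely from mesenchymal, stellate and endothelial cells, with epithelial contributions to the basement membrane. In a bulk extract, fewer cells of a type and less RNA per cell cannot be told apart.

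Raw signals, before background correction and normalisation, had a median per array of 304 to 467 in red (knockout) and 163 to 224 in green (wild type). The channels differ in dye as well as genotype, so this gap does not compare amounts of RNA. Well above background were 78.2% to 85.1% of probes. Cyp11a1 itself had log2 ratios of -0.19, -0.40, 0.013 and -0.072 on arrays 1 to 4 (limma adjusted p = 0.164). The place of its probe relative to the deletion was not analysed here, so this value does not check the genotype labels. All values below are log2 ratios of knockout over wild type after loess normalisation within each array, given as mean ± SE. The SE is the moderated one of limma's eBayes fit, not that of a gene's own array values. It was 0.070 for Fbn1, whose array values had an SD of 0.18, and 0.042 for Col4a5, with an SD of 0.016. Adjusted p-values come from limma over 15524 genes with a threshold of 0.05.

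Of the 52 members tested, 6 were lower in knockout (Fbn1, Col5a1, Lama2, Col6a1, Col15a1 and Col13a1), 1 was higher (Col26a1), and 45 did not pass. Among all genes tested, 5.11% were called lower and 9.45% higher. An unadjusted p under 0.05 was given by 16 members (30.8%) and by 30.8% of all genes, the share against which such counts below are read. The median log2 ratio of the members was -0.077, with 37 below 0 and 15 above. Over all 15524 genes the median was 0.013, with 7041 below 0 and 8483 above. With median centring in place of loess, however, the members' median was 0.27 against 0.26 over all genes. Fbn1 was the single called-lower member that remained lower with that scaling, taken relative to the median of all genes. The 38 collagens tested had a median of -0.074 with 4 lower and 1 higher, the 9 laminins -0.080 with 1 lower, and the 5 fibrillins and fibulins -0.092 with 1 lower. The 7 called members kept 1 sign on every array that measured them. The calls rest on these same array values, so this is not evidence apart from them.

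**Figure D1:**
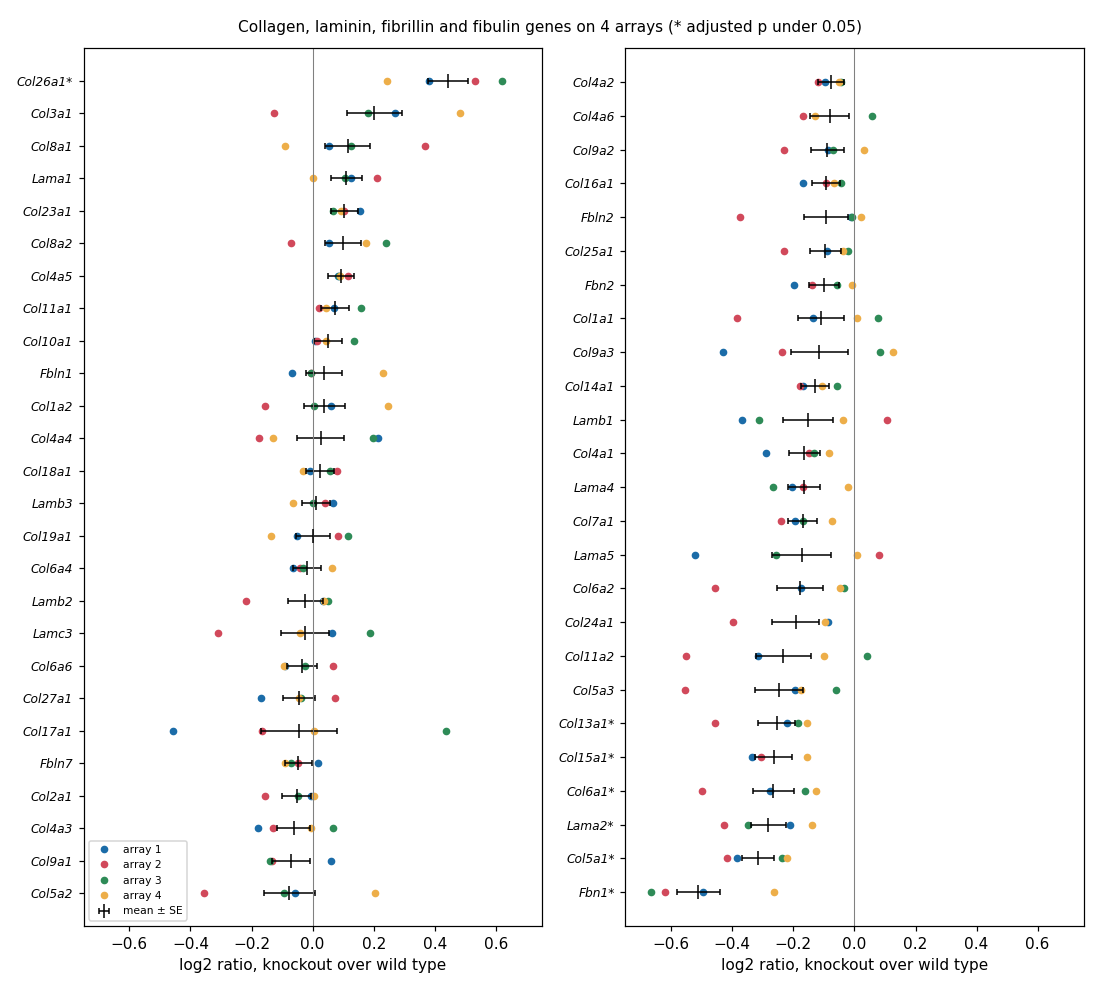
Log2 ratio of knockout over wild type after loess (x axis) for 51 of the 52 members tested, ordered from highest to lowest mean. There is 1 coloured point per array, with the mean ± moderated SE in black. Stars mark members with an adjusted p under 0.05: Col26a1 lies above 0 on all 4 arrays, and Fbn1 is the lowest member at -0.51.

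The sequence before the start of each lower member is shown because these 6 genes were called in the same direction with loess. RefSeq promoter windows (GRCm38.p6) matched 42 of the 54 members, with 48 windows, and the last 250 bases before the start were read 5′ to 3′ on the gene's own strand. Capitals mark matches to 3 short promoter motifs searched on both strands, which do not overlap in these windows. The GC box, a site of Sp1-type factors, was searched as GGGCGG. The windows lie at chr2:125506439-125506688 (minus strand) for Fbn1, chr2:27886175-27886424 (plus) for Col5a1, chr10:27616943-27617192 (minus) for Lama2, chr10:61979109-61979358 (minus) for Col13a1, chr4:47207762-47208011 (plus) for Col15a1 and chr10:76726045-76726294 (minus) for Col6a1.
Fbn1: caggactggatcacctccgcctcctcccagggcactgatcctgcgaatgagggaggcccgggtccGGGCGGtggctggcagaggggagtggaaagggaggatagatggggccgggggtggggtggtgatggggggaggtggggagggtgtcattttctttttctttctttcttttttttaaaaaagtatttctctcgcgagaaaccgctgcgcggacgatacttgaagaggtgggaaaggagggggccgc
Col5a1: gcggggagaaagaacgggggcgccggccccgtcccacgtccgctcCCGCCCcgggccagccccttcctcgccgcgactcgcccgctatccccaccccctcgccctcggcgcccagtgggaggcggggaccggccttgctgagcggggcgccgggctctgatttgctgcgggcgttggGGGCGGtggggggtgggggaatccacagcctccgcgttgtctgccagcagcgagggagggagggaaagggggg
Lama2: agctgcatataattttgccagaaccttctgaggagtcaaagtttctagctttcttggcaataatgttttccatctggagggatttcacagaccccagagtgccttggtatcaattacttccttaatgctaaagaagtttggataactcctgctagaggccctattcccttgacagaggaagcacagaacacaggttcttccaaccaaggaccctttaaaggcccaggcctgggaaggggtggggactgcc
Col13a1: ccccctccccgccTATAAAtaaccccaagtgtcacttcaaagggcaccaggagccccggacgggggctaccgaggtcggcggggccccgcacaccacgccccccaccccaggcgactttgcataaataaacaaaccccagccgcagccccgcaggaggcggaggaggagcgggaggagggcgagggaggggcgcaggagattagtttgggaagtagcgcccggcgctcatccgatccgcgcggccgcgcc
Col15a1: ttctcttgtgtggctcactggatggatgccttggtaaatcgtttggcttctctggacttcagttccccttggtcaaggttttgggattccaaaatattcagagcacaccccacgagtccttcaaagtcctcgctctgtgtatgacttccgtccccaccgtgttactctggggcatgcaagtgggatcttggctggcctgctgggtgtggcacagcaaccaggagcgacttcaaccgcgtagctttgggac
Col6a1: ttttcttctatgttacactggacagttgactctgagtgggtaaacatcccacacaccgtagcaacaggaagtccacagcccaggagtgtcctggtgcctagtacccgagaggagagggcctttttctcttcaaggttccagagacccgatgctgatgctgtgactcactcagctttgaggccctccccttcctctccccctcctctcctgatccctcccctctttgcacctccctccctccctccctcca

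The 6 windows had little in common in these letters. Fbn1 held 1 GC box and Col5a1 held 2, and Lama2, Col15a1 and Col6a1 held none of the 3 motifs. Col13a1 held 1 TATA box match, near the end of its window that is farthest from the gene start. Their GC content ran from 47.2% (Lama2) to 76.4% (Col5a1). A GC box stood in 27 of the 48 member windows (56.2%) against 32.7% of 32851 RefSeq windows, and the median GC content was 59.4% against 52.4%. The TATA box, a core promoter element, was searched as TATAAA and stood in 10.4% of member windows against 12.4% of all. The box named for its letters CCAAT stood in 33.3% of member windows and in 33.8% of all those in the table. A match is a run of letters, not a measured binding site.

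Fbn1, the main fibrillin of microfibrils, had the largest decrease among the members. Its normalised knockout signals on arrays 1 to 4 were 872.6, 1181, 1380 and 1937, against wild-type signals of 1230, 1817, 2189 and 2325 on the same arrays. The log2 ratios were -0.49, -0.62, -0.67 and -0.26, so the knockout extract was the dimmer on every array and least so on array 4. The mean was -0.51 ± 0.070 (moderated SE, n = 4 arrays, limma adjusted p = 0.00518), a 1.43-fold decrease. A second probe for Fbn1 gave -0.36, -0.41, -0.46 and -0.21, with a mean of -0.36 (adjusted p = 0.00663 with every probe tested alone). Leaving out 1 array gave -0.59 to -0.46, and the call held each time. With median centring in place of loess, Fbn1 lay at -0.13 against 0 and did not pass (limma adjusted p = 0.13). Relative to the median of all genes under that scaling it lay at -0.38 and passed. Fbn2, the fibrillin most used in embryonic tissue, had -0.20, -0.14, -0.056 and -0.0069, below 0 on all 4 arrays but not past the threshold (-0.10, adjusted p = 0.218).

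None of the 3 fibulins tested passed in limma, and 0 had an unadjusted p under 0.05. Fbln1, which binds fibronectin and laminin, lay at 0.038, and Fbln7, a cell adhesion fibulin, at -0.048. Fbln2, a basement membrane and elastic fibre linker, had -0.012, -0.37, -0.0069 and 0.023 on arrays 1 to 4, so that its mean of -0.092 (adjusted p = 0.424) comes from array 2.

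Among 11 fibrillar collagens, 1 was lower and 10 did not pass, with a median of -0.076. Col5a1, whose chain nucleates collagen I fibrils and limits their width, had -0.38, -0.42, -0.24 and -0.22. All 4 arrays were below 0, with a mean of -0.31 ± 0.052 (limma adjusted p = 0.00982), and the call held without any 1 array. Its other probe gave -0.40, -0.23, -0.24 and -0.027, with a mean of -0.22 that did not pass (adjusted p = 0.0544 with every probe tested alone). Its partners in collagen V differed from it in spread: Col5a3 had -0.20, -0.56, -0.061 and -0.17 (-0.25, adjusted p = 0.0784) and Col5a2 had -0.059, -0.35, -0.095 and 0.20 (-0.076, adjusted p = 0.578). Col11a2, a chain of the closely related collagen XI, had -0.32, -0.55, 0.040 and -0.10 (adjusted p = 0.132), and Col11a1 lay above 0 on all 4 arrays at 0.073 (adjusted p = 0.320). Col24a1 lay at -0.19 on 3 arrays (adjusted p = 0.145), on a probe that was not its brightest.

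Collagens I and III, the main fibril formers of interstitial matrix, did not pass on their brightest probes. Col1a1 had -0.14, -0.38, 0.076 and 0.0070 and Col1a2 had 0.059, -0.16, 0.0048 and 0.25, so both chains of collagen I were lowest on array 2 and straddled 0. Col3a1 had 0.27, -0.13, 0.18 and 0.48, with a mean of 0.20 ± 0.089 (limma adjusted p = 0.174). Without array 2 it passed as higher at 0.31 (adjusted p = 0.0361), but its other probe gave -0.28, -0.65, -0.32 and -0.44, below 0 on every array. Col2a1, the cartilage fibril chain, lay at -0.052 and Col27a1, a fibrillar chain of cartilage and embryonic epithelia, at -0.044.

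Col6a1, 1 of the chains of collagen VI, was lower at -0.28, -0.50, -0.16 and -0.13 on arrays 1 to 4 (-0.27 ± 0.067, limma adjusted p = 0.0384). Col6a2, which pairs with it in the trimer, had -0.17, -0.46, -0.035 and -0.047 (-0.18, adjusted p = 0.152). Both were lowest on array 2 and below 0 on all 4. Col6a4 (-0.019) and Col6a6 (-0.035), which can take the place of Col6a3, lay near 0. Col6a3 itself had no named probe. The call for Col6a1 was lost without any 1 array, at adjusted p = 0.0587 to 0.110.

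Of the other collagens linked to cell surfaces and basement membranes, Col15a1 and Col13a1 were lower and Col18a1 and Col7a1 did not pass. Col15a1, a multiplexin that bridges basement membrane and collagen fibrils, had -0.33, -0.30 and -0.16 on arrays 1, 2 and 4, with no value on array 3 (-0.26 ± 0.060, n = 3 arrays, limma adjusted p = 0.0332). Its other probe gave -0.16 (adjusted p = 0.101). Col13a1, a transmembrane collagen of adhesion sites, had -0.22, -0.46, -0.18 and -0.16 (-0.25 ± 0.060, limma adjusted p = 0.0308), and its other probe gave -0.073 (adjusted p = 0.322). Neither call held without 1 array, with adjusted p = 0.0515 to 0.129 for Col15a1 and 0.0555 to 0.0819 for Col13a1. Col18a1, the source of endostatin and the other multiplexin, lay at 0.024, and Col7a1, the anchoring fibril collagen, at -0.17 (adjusted p = 0.0533) with all 4 arrays below 0.

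On their brightest probes, none of 6 collagen IV chains passed, at a median of -0.069, and 1 of the 6, Col4a1, had an unadjusted p under 0.05. Col4a1, whose chain makes up most basement membrane networks with Col4a2, had -0.29, -0.15, -0.13 and -0.084 (-0.16, limma adjusted p = 0.0686), and Col4a2 had -0.096, -0.12, -0.044 and -0.050 (-0.077, adjusted p = 0.272). Both were below 0 on all 4 arrays. Col4a5 was above 0 on all 4 arrays at 0.083, 0.12, 0.085 and 0.089 (adjusted p = 0.180), the narrowest spread of any member measured on 4 arrays. Col4a3 (-0.062), Col4a4 (0.026) and Col4a6 (-0.080, 3 arrays) lay on both sides of 0. With every probe tested alone in limma, the other probes of Col4a1 (-0.29, adjusted p = 0.0122) and Col4a2 (-0.25, adjusted p = 0.0276) passed as lower. Those of Col4a6 lay above 0, at 0.13 (adjusted p = 0.316) and 0.25 (adjusted p = 0.0831), and did not pass.

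Among the 9 laminin chains with a named probe, which leave out Lama3 and Lamc1, Lama2 was lower and 8 did not pass. Lama2, the alpha chain of the laminin of muscle and nerve basement membranes, had -0.21, -0.43, -0.35 and -0.14 (-0.28 ± 0.058, limma adjusted p = 0.0205). Without array 1 or array 3 it did not pass, with adjusted p up to 0.0768. Lama4, the alpha chain typical of blood vessels, had -0.20, -0.17, -0.27 and -0.020, below 0 on all 4 arrays (-0.16, adjusted p = 0.0793). Lama5, the main alpha chain of mature epithelia, had -0.52, 0.080, -0.26 and 0.0073 (adjusted p = 0.263), and Lamb1 had -0.37, 0.11, -0.31 and -0.038 (adjusted p = 0.25). Those 2 chains were lowest on arrays 1 and 3 and highest on array 2. Lama1, the alpha chain of early embryonic basement membranes, lay at 0.11 (adjusted p = 0.180). Lamb2 (-0.024), Lamb3 (0.011) and Lamc3 (-0.025) did not pass either.

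Col26a1, an atypical short collagen, was the single higher member. Its normalised knockout signals were 177.7, 180.1, 262.1 and 226.1 against 136.6, 124.5, 170.7 and 191.1 in wild type, on a dim probe with a mean log2 brightness of 7.48. The log2 ratios of 0.38, 0.53, 0.62 and 0.24 were all above 0, with a mean of 0.44 ± 0.067 (1.36-fold, limma adjusted p = 0.00721), and the call held without any 1 array. Its size varied with the processing. It was 0.43 without background correction, 0.69 with the processed signals of the scan software Feature Extraction, and 0.70 with that software's log ratio. By median centring it lay at 0.29 against 0 and passed, and at 0.041 relative to the median of all genes, where it did not pass.

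The 3 short chain network collagens, Col8a1, Col8a2 and Col10a1, were all above 0 (0.11, 0.099 and 0.050) and none passed, with 0 unadjusted p-values under 0.05 in limma. Of 6 fibril-associated collagens none passed in limma, 1 had an unadjusted p under 0.05 (Col14a1), and the median was -0.091. Col14a1, which coats collagen I fibrils, was below 0 on all 4 arrays at -0.13 (limma adjusted p = 0.103), as was Col16a1 at -0.092 (adjusted p = 0.213). Col9a1 (-0.071), Col9a2 (-0.089), Col9a3 (-0.11) and Col19a1 (0.0025) did not pass. Among the transmembrane collagens, Col25a1 lay at -0.096, Col23a1 at 0.10 with all 4 arrays above 0, and Col17a1, the hemidesmosome collagen, ranged from -0.46 on array 1 to 0.44 on array 3.

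Of the members, 23 had more than 1 tested probe, with 27 other probes beside the brightest, and 21 of the 27 had the same sign as the brightest. The median difference between an other probe and the brightest was 0.10 in size. With every probe tested alone, 2972 of all 22359 named probes passed, a count not split by direction. On brightest probes, 9.45% of all genes were called higher and 5.11% lower. Of the 27, 8 passed: 7 were lower and 1, for Col18a1, was higher at 0.17 (limma adjusted p = 0.0414). Besides Fbn1, the lower ones belonged to Col1a1 (-0.46, adjusted p = 0.0160), Col3a1 (-0.42, adjusted p = 0.00718), Col4a1 (-0.29, adjusted p = 0.0122), Col4a2 (-0.25, adjusted p = 0.0276), Lama4 (-0.25, adjusted p = 0.0166) and Col27a1 (-0.18, adjusted p = 0.0392). The largest disagreement, 0.63, was between the probes of Col3a1, which fell on opposite sides of 0. Averaging a gene's probes called Col4a1 (-0.23, adjusted p = 0.0210), Lama4 (-0.19, adjusted p = 0.0287) and Col7a1 (-0.17, adjusted p = 0.0467) as lower and lost Col13a1 and Col15a1. Which transcripts each probe reads was not analysed here.

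**Figure D2:**
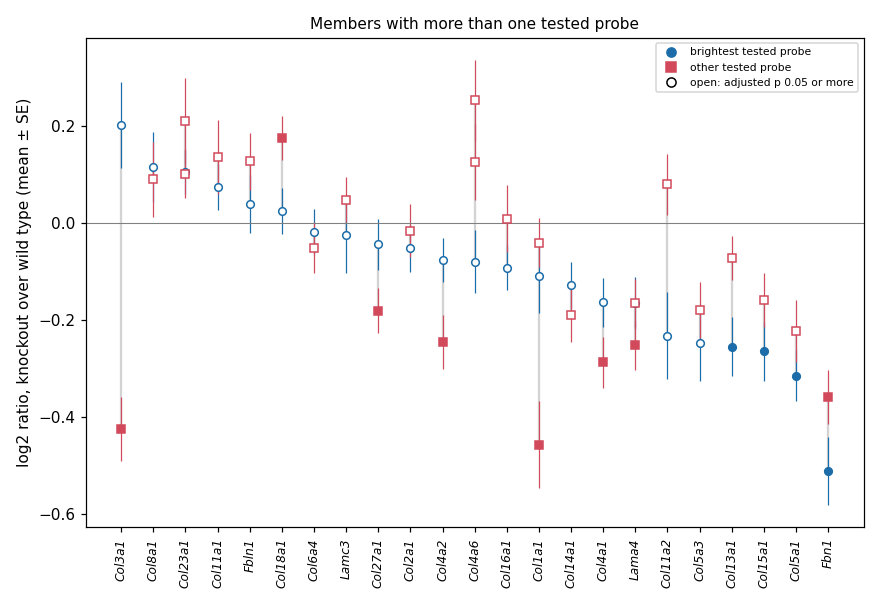
Log2 ratio of knockout over wild type (y axis, mean ± moderated SE) for the 23 members with more than 1 tested probe. The brightest probe is a blue circle and the others are red squares. Marks are filled where the adjusted p with every probe tested alone was under 0.05. Both Fbn1 probes lie below 0 and both passed, whereas the Col3a1 probes lie 0.63 apart on opposite sides of 0.

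The members did not move alike on the 4 arrays. Their median was -0.090, -0.15, -0.023 and -0.038 on arrays 1 to 4. The median of all genes, which loess holds near 0 within each array, was between 0.017 and 0.022. Array 2 held the lowest value for 23 of the 48 members measured on all 4 arrays (47.9%), against 30.1% of all such genes. Without array 2 the median of the members was -0.041, with 3 lower (Fbn1, Col5a1 and Lama2) and 2 higher. Without array 1 or array 3 only Fbn1 and Col5a1 passed as lower, and without array 4 Fbn1, Col5a1 and Lama2 did. Below 0 on all 4 arrays were 16 of the 48 members (33.3%) and above 0 were 5 (10.4%), against 14.4% and 24.6% of all genes measured on 4 arrays.

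**Figure D3:**
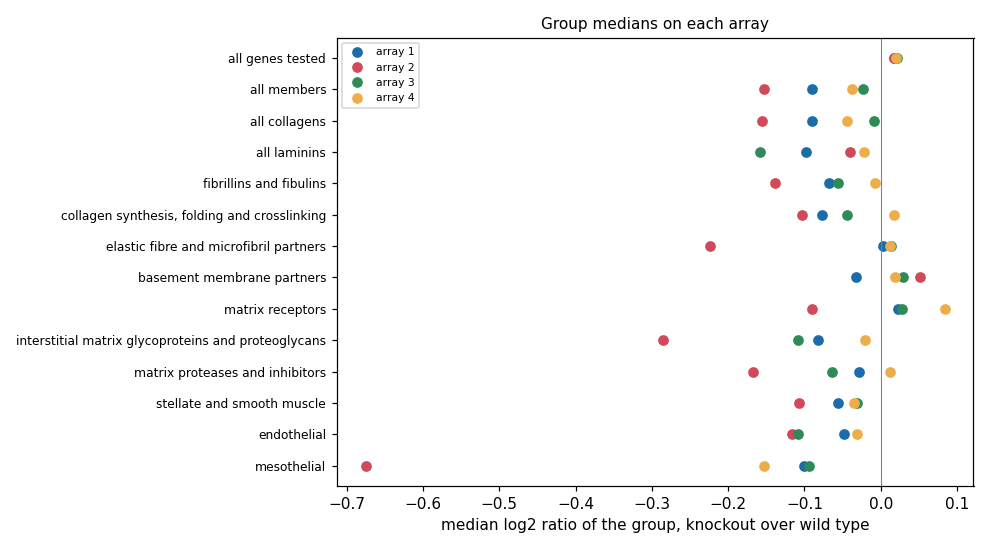
Median log2 ratio of knockout over wild type (x axis) on each array for all genes tested, for the members and their 3 families, for 6 lists of partner genes and for 3 lists of cell type markers, 1 coloured point per array. All genes sit at 0.017 to 0.022, the members are lowest on array 2 at -0.15, and the mesothelial markers reach -0.67 there.

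The scaling of the arrays bears on every direction given here. With median centring, which shifts each array as a whole and leaves any trend with brightness in place, 61% of all genes were called higher and 15.8% lower, and of the members 34 were higher and 5 lower. Relative to the median of all genes under that scaling, the members' median was 0.016, with 26 of the 52 below 0 and 26 above, 10 called higher and 13 lower, where 27.4% of all genes were called higher and 31% lower. Fbn1 lay at -0.38 (limma adjusted p = 0.00354), whereas Col5a1 (-0.054), Lama2 (-0.10), Col6a1 (-0.12), Col15a1 (-0.12) and Col13a1 (-0.011) lay below 0 and did not pass. The members' probes had a median log2 brightness of 10.8, against 9.31 over all genes. Of 15 members with a log2 brightness under 9, 14 were below 0 relative to that median, and of the other 37 members 25 were above 0. Which scaling is nearer to the RNA in the extracts was not tested.

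**Figure D4:**
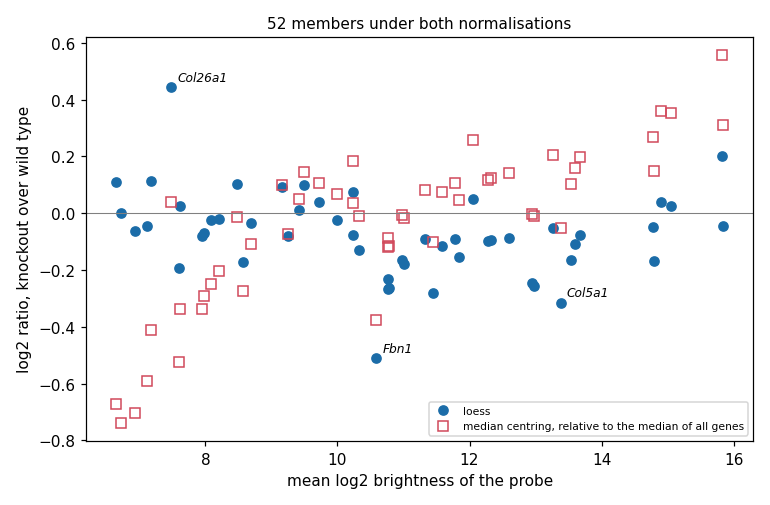
Log2 ratio of knockout over wild type (y axis) against the mean log2 brightness of the probe (x axis) for the 52 members, with loess (blue circles) and with median centring relative to the median of all genes (red squares). With median centring, 14 of the 15 members with a log2 brightness under 9 lie below 0, all but Col26a1, and Fbn1 is below 0 with both, at -0.51 and -0.38.

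The genes that make, cross-link, bind or cut these proteins were taken from 6 lists of 139 genes. Of 127 tested, 26 passed with loess, 10 higher and 16 lower, where 9.45% of all genes were called higher and 5.11% lower. When median centring replaced loess and its overall shift was taken off, 8 of the 10 and 12 of the 16 passed in the same direction and none in the opposite one, in a setting that called 27.4% of all genes higher and 31% lower. Among 33 genes of collagen synthesis, folding and crosslinking, whose list median was -0.038, 2 passed as higher and 4 as lower. Ppib, the prolyl isomerase cyclophilin B that folds procollagen, had 0.30, 0.68, 0.58 and 0.62, above 0 on every array (0.55 ± 0.067, limma adjusted p = 0.00382). P3h4, a scaffold of the lysyl hydroxylation complex, was higher at 0.17. Sec23a, a coat protein of the vesicles that export procollagen, was lower at -0.36 (adjusted p = 0.00851), as were P4ha2, a prolyl hydroxylase subunit (-0.36), Colgalt2, a hydroxylysine galactosyltransferase (-0.22), and Plod2, a lysyl hydroxylase (-0.19). P4ha2, Colgalt2, Plod2 and P3h4 did not pass when 1 array or another was left out, with adjusted p up to 0.155.

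The list median of 15 elastic fibre and microfibril partners was -0.027, and 1 was lower and 1 higher. Eln, the elastin gene, had -0.13, -0.63, -0.35 and -0.15 (-0.32, limma adjusted p = 0.0447), below 0 on all 4 arrays and lowest on array 2, but did not pass without any 1 array (adjusted p = 0.0624 to 0.123). Efemp2, which encodes fibulin 4 and helps elastin to cross-link, was higher at 0.26 (adjusted p = 0.0244), and passed without array 2 but not without array 1, 3 or 4. Of 12 basement membrane partners, Frem2, an adhesion protein of embryonic basement membranes, was higher at 0.23, 0.46, 0.50 and 0.43 (0.41 ± 0.056, adjusted p = 0.00534). Smoc2, a calcium-binding matrix protein, was lower at -0.28 (adjusted p = 0.0488, and up to 0.149 with 1 array left out).

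Among 20 matrix receptors, 3 passed as higher and 2 as lower, and the list median was -0.018. Itga6 and Itgb4, which together form the laminin receptor of hemidesmosomes, were higher at 0.25 (limma adjusted p = 0.0123) and 0.23 (adjusted p = 0.0447), and Sdc1, a heparan sulfate proteoglycan of epithelia, at 0.25. Itgav, of the integrins that bind fibrillin and vitronectin, had -0.49, -0.29, -0.43 and -0.34 (-0.39 ± 0.051, adjusted p = 0.00448), and Itgb1, the beta chain shared by collagen and laminin receptors, was lower at -0.23. The calls for Itga6, Itgb4, Sdc1 and Itgb1 were lost with 1 array or another left out, at adjusted p up to 0.146, while that for Itgav held.

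Interstitial glycoproteins and proteoglycans had the lowest median of the 6 lists, -0.11, with 6 of 24 lower and 2 higher. Vcan, the versican that binds fibrillin microfibrils, had -0.68, -0.85, -0.63 and -0.35 (-0.63 ± 0.077, limma adjusted p = 0.00382). Aspn, a small proteoglycan on collagen fibrils, lay at -0.51 (adjusted p = 0.00943), Thbs1 at -0.38, Ogn at -0.33, Thbs2 at -0.25 and Ccn2, the connective tissue growth factor, at -0.48 (adjusted p = 0.0364). Vcan, Aspn and Thbs1 passed without any 1 array, and Ogn, Thbs2 and Ccn2 lost their calls without 1 array or another (adjusted p up to 0.106). The 2 higher genes, Matn4 at 0.32 and Matn2 at 0.17, were named after their values were seen and lost their calls in the same way (adjusted p up to 0.137). Of 23 proteases and inhibitors, Timp3, a metalloproteinase inhibitor bound to matrix, was lower at -0.42 ± 0.055 (adjusted p = 0.00454), Reck, a membrane inhibitor, at -0.24, and Mmp11, a stromal metalloproteinase, was higher at 0.28. The call for Timp3 held without any 1 array, and those for Reck and Mmp11 did not (adjusted p up to 0.0752).

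**Figure D5:**
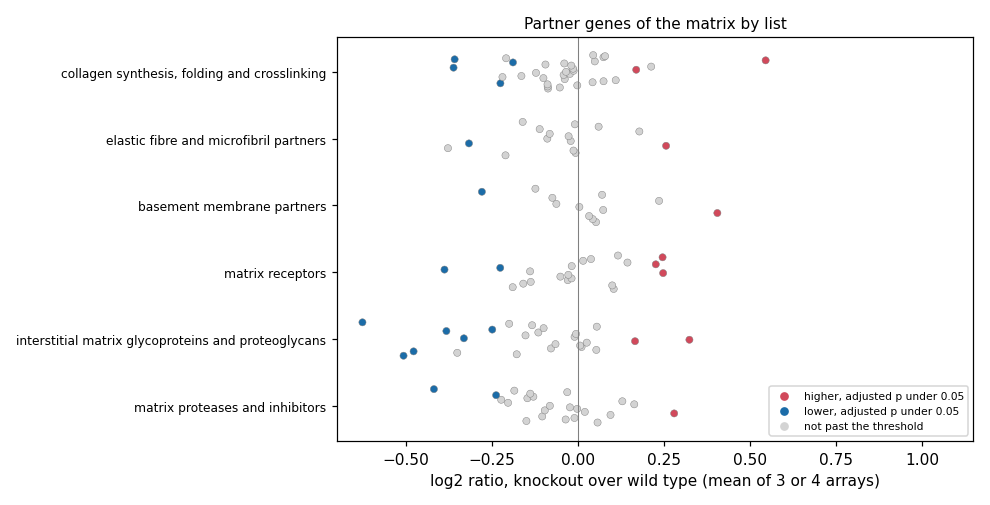
Log2 ratio of knockout over wild type after loess (x axis, mean of 3 or 4 arrays) for 127 partner genes in 6 lists, 1 point per gene, red where higher and blue where lower with an adjusted p under 0.05. Vcan at -0.63 is the lowest gene and Ppib at 0.55 the highest, and interstitial glycoproteins and proteoglycans hold 6 of the 16 lower genes.

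Markers of the cells that could supply these chains were set beside them. Of 14 stellate and smooth muscle markers, Pdgfrb was higher at 0.33 (limma adjusted p = 0.0209, not past without array 2 or array 4), Cnn1 was lower at -0.33 (adjusted p = 0.00625) and 12 did not pass, at a median of -0.036. Pdgfra (-0.042) and Des (-0.12) were among the 12. The summed signal of the 13 markers measured on 4 arrays was 53560 to 82220 in knockout and 58410 to 81930 in wild type. Summed signals here and below are ranges over arrays and set aside which extracts shared an array. Of 12 endothelial markers, Tek was lower at -0.29 (limma adjusted p = 0.0260, not past without array 3 or array 4) and 11 did not pass. Their median was -0.067 with 11 of 12 below 0, where 7041 of all 15524 genes were below 0. Pecam1 lay at -0.11, Cdh5 at -0.21 (adjusted p = 0.0513) and Kdr at -0.063, and the summed signal was 39730 to 54590 against 43480 to 61730. Cnn1 and Tek were named after their values were seen.

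The mesothelial markers were low on array 2, where many members were lowest. None of 5 passed in limma, 3 had an unadjusted p under 0.05, and their medians were -0.10, -0.67, -0.094 and -0.15 on arrays 1 to 4, with a summed signal of 1280 to 2517 in knockout and 1362 to 2795 in wild type. Msln had -0.11, -1.05, -0.44 and -0.27, Upk3b had -0.053, -0.70, 0.18 and -0.20, and Wt1 had -0.10, -0.16, 0.20 and 0.091. Hepatocyte genes differed widely between arrays: Alb had 4.13, 2.70, -3.52 and 1.44, and Ahsg and Apoa1 followed the same order (4.09, 2.69, -2.94 and 1.44, and 1.23, 0.79, -0.48 and 0.61). Their summed signal was 1430 to 9665 in knockout and 1240 to 4277 in wild type. The part of these cell types in the members' values was not tested.

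Of the other lists, the acinar one had 3 of 7 markers higher, Cel (0.66), Cpa1 (0.62) and Rbpjl (0.40), and 1 lower, Pnlip (-0.20). Among all genes tested, 9.45% were called higher and 5.11% lower. The summed signal of the acinar list was 295200 to 443600 in knockout and 264400 to 278000 in wild type, which also differ in dye. The sum includes Cel, Cpa1 and Rbpjl, so it is not evidence apart from their calls. The ranges also set aside which extracts shared an array. Of 7 endocrine markers Chga was lower (-0.24), and of 5 skeletal muscle markers Ckm was higher (0.26). These 6 genes were named after their values were seen, and Pnlip, Chga and Ckm did not pass when 1 array or another was left out (limma adjusted p up to 0.145). None of 24 duct, Schwann and neural crest, cartilage and bone, macrophage and leukocyte or gut epithelium markers passed in limma, and 2 had an unadjusted p under 0.05.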

How the data were processed

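RNA was reverse transcribed from 20 µg per extract, per the labels' protocols, and the 4 arrays shared 1 slide and 1 scan, per the file headers. Spots were read by the authors in Feature Extraction 10.5.1.1 (Agilent), as the submitters' processing notes give it. The deposited files hold, per the file headers, median red and green signals and backgrounds and processed signals as intensity on a linear scale, a log10 ratio of red over green, and marks for outliers, saturation and well above background.

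Median signals were corrected with normexp (offset 50) and normalised by loess within arrays in limma 3.58.1 (R 4.3.3), with control and non-uniform spots at weight 0, and non-uniform spots (599 to 988 per array) were then left out. No spot was saturated. Probes were named through unversioned RefSeq accessions (61.0% of probes). A probe was tested if well above background on at least 3 arrays in either channel with at least 3 values, and a gene was its brightest such probe. The log2 ratio was fitted with lmFit and eBayes against 0, two-sided, with Benjamini-Hochberg adjustment, and checked on simulated data. Alternatives of normalisation and left-out arrays kept these probes and this filter. With median centring, relative values subtract each array's median over all genes.

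The text names every member but 1, which is counted but not reported here by name, Cyp11a1, up to 6 called genes of each partner list with the smallest p, and up to 3 markers of a list in listed order, for 4 of the marker lists. Other genes named from a list are said to be so in the text. The members and lists were chosen with earlier results of these data known. The 4 arrays limit the precision. Protein features of the members were planned and were not analysed here.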

Additional observations from a re-analysis of the deposited data

Results flagged for a closer look

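In 4 of 95 named genes measured on 4 arrays, 1 array stood apart from the other 3 beyond Dixon's 95% limit, which chance alone passes in about 1 of 20 genes. Fbln2 was at -0.37 on array 2 against -0.012 to 0.023 on the others. Lamb2 was at -0.22 on array 2 against 0.035 to 0.052. Ogn was at -0.59 on array 2 against -0.28 to -0.22. Colgalt2 was at -0.12 on array 4 against -0.27 to -0.25.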

How the results depend on the processing

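Of the 7 called members, 7 kept their call without background correction, with scaling between arrays, with array weights, and without or with a strict filter on dim probes, 6 with eBayes trend and robust (Col15a1 was lost), 5 with the mean of a gene's probes, 3 with Feature Extraction's processed signals or log ratio column (2 members lower each), and 1 with each form of median centring (Col26a1 against 0, Fbn1 relative to the median of all genes). Leaving out each array gave 967 to 1634 genes called over all genes, 2 to 3 members lower, 1 to 2 higher, a median of the members of -0.095 to -0.041, and 9 to 20 partner genes. With single channels and no replicate block, ignoring which extracts shared an array, 107 genes passed, 0 members lower and 0 higher (limma, 4 members with an unadjusted p under 0.05), and 1 partner gene. Against 0, median centring called 11922 genes, 34 members as higher at a median of 0.27, and 94 partner genes. Relative to the median of all genes it called 9065, 10 members higher and 13 lower at a median of 0.016, and 62 partner genes.

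With median centring the sign turned in 48 of the named genes, 8 of which passed neither with it nor with loess. The other 40 passed in at least 1 of the fits: Cdh5 0.21, Chga 0.23, Cnn1 0.12, Col13a1 0.24, Col14a1 0.24, Col15a1 0.12, Col16a1 0.36, Col19a1 -0.49, Col1a1 0.41, Col25a1 0.37, Col27a1 0.56, Col2a1 0.45, Col4a1 0.35, Col4a2 0.45, Col5a1 0.20, Col5a2 0.29, Col5a3 0.25, Col6a1 0.13, Col6a2 0.23, Col6a6 0.14, Col7a1 0.40, Col9a2 0.39, Col9a3 0.32, Des 0.26, Eln 0.12, Fbln2 0.33, Fbln7 0.52, Fbn2 0.37, Itgb1 0.21, Lama1 -0.42, Lama2 0.15, Lama4 0.24, Lamb1 0.30, Lamb2 0.32, Ogn 0.044, Pecam1 0.30, Plod2 0.18, Pnlip 0.069, Smoc2 0.091, Thbs1 0.0074. Relative to the median of all genes it turned in 25, of which 14 passed in neither fit and 11 in 1 of them, Ckm with loess and the others with median centring: Ckm -0.044, Col19a1 -0.74, Col27a1 0.31, Col2a1 0.20, Col4a2 0.20, Col4a4 -0.34, Col7a1 0.15, Col8a1 -0.41, Fbln7 0.27, Lama1 -0.67, Wt1 -0.41. The cause was not tested. Dim members such as Lama1 and Col19a1 were well above background on only some arrays, which limits their values.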
